A study of Mus musculus with 20 samples.

Results

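Extraembryonic endoderm cells of 2 origins were compared: iXEN cells, which had been converted from ES cells by induced Gata4, and XEN cells, which had been derived from blastocysts. The comparison takes the libraries labelled iXEN and those labelled XEN at day 0, 4 of the 20 single-cell RNA-seq libraries of the series, 2 for each origin, and sums the UMIs of all cells with 500 or more detected genes. It holds 13097 XEN cells and 12699 iXEN cells of the 113288 cells kept in the whole series. XEN cells were of the line 3F-4 XEN, homozygous for an inducible cassette of Oct4, Klf4, Sox2 and mCherry at Col1a1 (TetO-OKSmCh), for M2rtTA at Rosa26 and for an Oct4-GFP transgene, and were collected uninduced. iXEN cells were of the line iGata4-Gata6-Venus, heterozygous for an inducible Gata4 at Col1a1 (labelled TetO-Gata4 and named TetO-Gata4-mCherry in the study's methods), for M2rtTA at Rosa26 and for an H2B-Venus reporter in Gata6, and were collected after doxycycline had been given and withdrawn. Before collection XEN cells were kept on feeder fibroblasts in reprogramming medium without doxycycline. By the study's methods this medium holds serum, LIF, ascorbic acid and a GSK3-beta inhibitor. For iXEN cells the methods name neither ascorbic acid nor the inhibitor. Each group is labelled as 1 line. Origin, line, genotype, medium, feeder cells and sequencing project all differ between the groups and cannot be told apart in any result below, and the libraries of a group are technical duplicates, so p-values do not cover variation between cultures.

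Primitive endoderm is the layer of the blastocyst that forms beside the pluripotent epiblast, and XEN cells are its stem-cell-like derivatives in culture. Gata6, Gata4 and Sox17 are transcription factors of the primitive endoderm, and Pdgfra is a receptor on its surface. In the embryo this layer gives parietal endoderm, which lays down the basement membrane of Reichert, and visceral endoderm, an epithelium that secretes apolipoproteins and carrier proteins and signals to the epiblast. XEN cells in culture are known for a largely parietal profile.

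Total UMIs were 108205840 and 120619088 in XEN replicates 1 and 2 and 48141903 and 56997768 in iXEN replicates 1 and 2, with a median of 15016.5 and 18976 UMIs per XEN cell and 7394.5 and 7441 UMIs per iXEN cell. Any pair of the 4 libraries shared between 44 and 73 cell barcodes. Levels are given as CPM, a share of the UMIs of a library after TMM scaling, which corrects for differences in composition between libraries. Levels in a set of cells are given as plain CPM, without TMM. Genes were tested with edgeR's quasi-likelihood test in 1 model of all 20 libraries, and a gene was called where the Benjamini-Hochberg adjusted p was under 0.05 and the size of the log2 fold change 1 or more. Changes in the summed RNA of a library can come from fewer cells of a type or from less RNA per cell, which cannot be told apart in sums. For this reason sums over endoderm cells alone were also tested, that is, cells in which Lama1, Lamb1, Col4a1, Col4a2, Dab2, Sox17, Gata4, Gata6, Pth1r and Srgn together made up at least 0.2% of the UMIs. This limit was passed by 94.7% and 88.4% of XEN cells and by 82.7% and 95.4% of iXEN cells, and iXEN replicate 1 thus stood apart with 1020 cells under the limit, against 314 in iXEN replicate 2. Of the fibroblast-like XEN cells (10 or more UMIs over a list of feeder fibroblast genes, 41 and 126 cells), 40 and 122 also passed the endoderm limit, and Col3a1, a defining fibroblast collagen, had no UMI in either XEN library. iXEN replicates 1 and 2 held 102 and 23 fibroblast-like cells, of which 74 and 17 passed the endoderm limit. Sums were also tested without pluripotent-like cells, those with 5 or more UMIs over a list of pluripotency genes, and without cells that had 3 or more UMIs of the core pluripotency genes Pou5f1, Nanog, Sox2 and Zfp42. The first limit took 84.7% and 77.4% of XEN cells and 62.2% and 70.2% of iXEN cells, so that most cells were left out. Klf4, abundant in both groups, is on that list, and deeper cells pass a limit in UMIs more readily. The first limit thus does not single out pluripotent cells, and a call lost without these cells need not come from pluripotent cells. The core limit was passed by 1 and 3 XEN cells and by 162 and 81 iXEN cells.

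The transcription factors and the receptor that define XEN cells were present at overlapping levels in both groups. Gata4 (chromosome 14, 63198922 to 63271692 of GRCm38) was at 201 and 195 CPM in XEN and 152 and 335 CPM in iXEN (log2 fold change 0.30, standard error 0.63, adjusted p = 0.776). The iXEN duplicates lay on both sides of the XEN duplicates, and transcripts of the Gata4 transgene cannot be told from those of the endogenous gene. Gata6 was at 302 and 226 CPM in XEN and 96.2 and 250.3 CPM in iXEN (-0.61, adjusted p = 0.578). Work that the study cites for the Gata6 reporter of the iXEN line describes it as a loss-of-function allele. The groups may thus differ in intact copies of Gata6, and the part of this in the Gata6 values was not tested. Sox17 was at 286 and 276 CPM in XEN and 182 and 726 CPM in iXEN (0.69, adjusted p = 0.631). Pdgfra was at 124 and 73.0 CPM in XEN and 76.9 and 119 CPM in iXEN (log2 fold change -0.01, standard error 0.33, adjusted p = 0.997). For these 4 genes the libraries of the groups overlapped, and iXEN replicate 1 was the lower iXEN library in each. The ES libraries had at most 0.384 CPM of any of them. After each cell was thinned to 2000 UMIs, Sox17 was detected in 41.7% and 37.7% of XEN cells and in 35.9% and 69.1% of iXEN cells, while 0.0134% and 0.0330% of ES cells had a UMI. A p above the threshold does not show that the levels were equal: the standard error of 0.71 for Gata6 and 0.93 for Sox17 leaves room for differences of more than 1 on the log2 scale. These standard errors rest on the spread between the duplicates of all conditions.

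**Figure D1:**
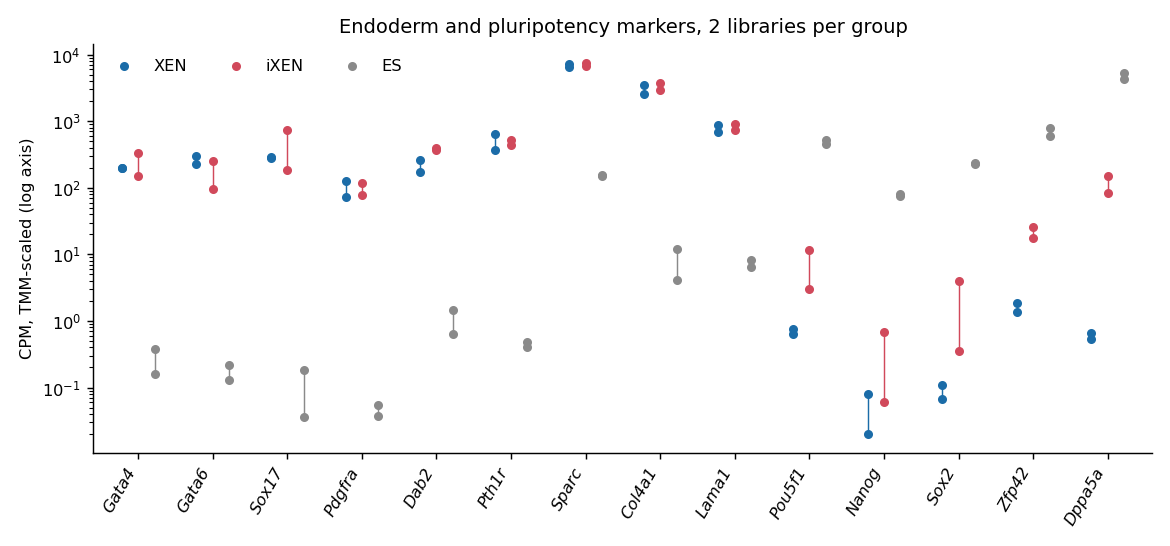
Level in CPM on a log axis (values under 0.02 are drawn at 0.02) of 9 endoderm markers and 5 pluripotency markers in the 2 XEN (blue), 2 iXEN (red) and 2 ES (grey) libraries, with a line joining duplicates. The endoderm markers overlap or lie close together in XEN and iXEN and are far lower in ES, while Dppa5a and Zfp42 lie between XEN and ES in iXEN.

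Of 28 genes of parietal endoderm and its basement membrane, all tested, 2 were called higher and 2 lower in iXEN, and the median log2 fold change was 0.14, beside 0.05 over all 17063 genes tested. Over all genes 17.5% were called (11.7% higher and 5.80% lower in iXEN). The parietal endoderm count of genes called higher was 1, 1, 2 and 2 without XEN replicate 1, XEN replicate 2, iXEN replicate 1 and iXEN replicate 2, respectively, and 2 in endoderm cells alone. The parietal endoderm count called lower was 1, 1, 1 and 0 without XEN replicate 1, XEN replicate 2, iXEN replicate 1 and iXEN replicate 2, respectively, and 1 in endoderm cells alone, 1 with RLE scaling and 1 with library totals. The parietal endoderm median lay between 0.02 (without iXEN replicate 2) and 0.50 (with library totals) over the alternatives, and was 0.23 in endoderm cells alone, 0.33 without XEN replicate 1, 0.06 without XEN replicate 2 and 0.23 without iXEN replicate 1. Lama1, Lamb1, Col4a1, Col4a2, Pth1r and Srgn are members of this list and also define endoderm cells. The values of the list in endoderm cells alone are thus not independent of that limit. Sparc, which binds collagen and was the most abundant member, was at 6515 and 7106 CPM in XEN and 6737 and 7587 CPM in iXEN (log2 fold change 0.07, standard error 0.29, adjusted p = 0.891). Among the called members, Stra6, a retinol transporter, was lower in iXEN, with 71.7 and 57.2 CPM in XEN and 9.77 and 6.55 CPM in iXEN (log2 fold change -2.98, standard error 0.63, adjusted p = 0.00548). Plat, the tissue plasminogen activator, was at 128 and 84.9 CPM in XEN and 51.9 and 32.9 CPM in iXEN (-1.33, adjusted p = 0.0447). Krt19, a keratin of simple epithelia, was higher, at 1.12 and 2.48 CPM in XEN and 17.9 and 35.7 CPM in iXEN (log2 fold change 3.89, standard error 0.75, adjusted p = 0.00297), and so was Fstl1, a secreted follistatin-like protein, at 7.87 and 8.51 CPM in XEN and 54.3 and 26.3 CPM in iXEN (2.30, adjusted p = 0.0158). Plat was not called without XEN replicate 1 (-1.01, adjusted p = 0.257) or XEN replicate 2 (-1.60, adjusted p = 0.0647) or iXEN replicate 1 (-1.69, adjusted p = 0.0684) or iXEN replicate 2 (-0.98, adjusted p = 0.273), nor with RLE scaling, with library totals, without pluripotent-like cells or in endoderm cells alone (-1.21, adjusted p = 0.0713). Fstl1 was not called without XEN replicate 1 (2.24, adjusted p = 0.112) or XEN replicate 2 (2.35, adjusted p = 0.0828) or iXEN replicate 1 (1.68, adjusted p = 0.111). Stra6 was not called without iXEN replicate 2 (-2.67, adjusted p = 0.0521).

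Across all genes, 2990 of 17063 were called, 2001 higher and 989 lower in iXEN. With library totals in place of TMM, the median log2 fold change of all genes moved from 0.05 to 0.43 and the calls were 2891 higher and 336 lower, so the balance between directions depended on the scaling, and values below are on the TMM scale. The direction also moved with the level of a gene. Among the 2829 genes with at least 50 CPM in the higher group, 87 were called higher and 369 lower, with a median log2 fold change of -0.35, whereas among the 14234 genes under 50 CPM 1914 were called higher and 620 lower, with a median of 0.16. With library totals these counts were 202 and 106 at 50 CPM or more and 2689 and 230 under it. Of the genes called higher, 898 had less than 1 CPM in both groups. In endoderm cells alone 2714 genes were called, 1746 higher and 968 lower, among them 2607 of the 2990 (87.2%). With XEN replicate 1 left out 1185 genes were called and with XEN replicate 2 left out 1746, each with 1 XEN library that is then assumed to vary like the other groups.

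**Figure D2:**
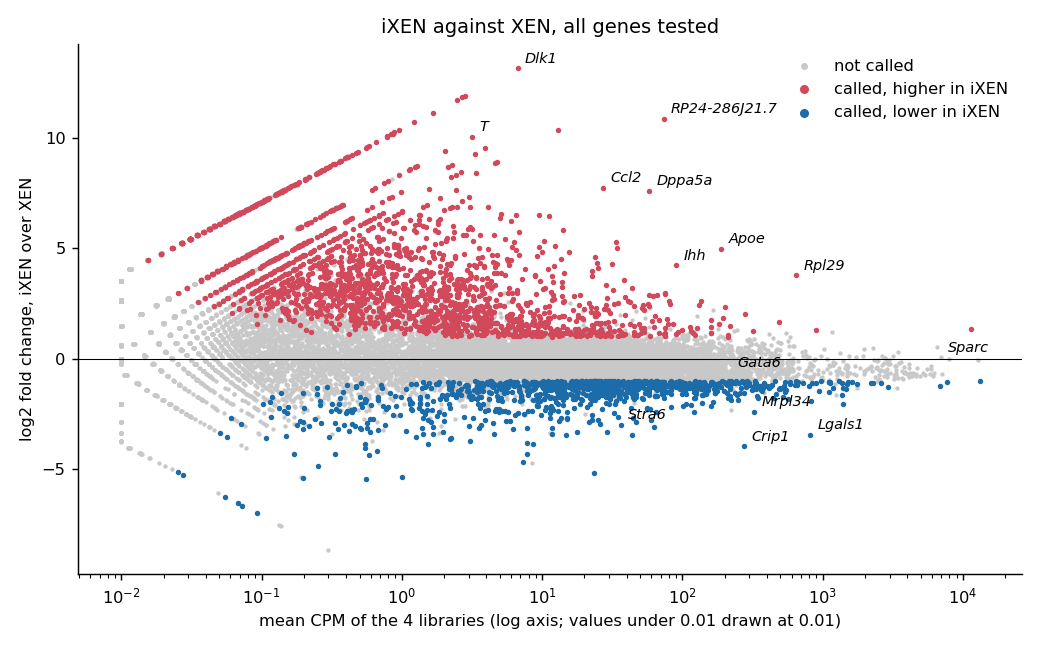
Log2 fold change of iXEN over XEN against the mean CPM of the 4 libraries (log axis) for the 17063 genes tested, with called genes in red (2001 higher in iXEN) and blue (989 lower). Most red points lie at low levels. Of the genes with at least 50 CPM in the higher group, a measure other than the axis, 369 are blue and 87 red. The diagonal rows at the left hold genes with few UMIs.

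Apolipoproteins, carrier proteins and other genes of visceral endoderm made up a list of which 15 members were higher in iXEN. Of 32 genes, 29 were tested, 15 were called higher and none lower, beside 11.7% of all genes called higher, and the median log2 fold change was 2.21 (2.19 with the members at 0 UMIs in a group set to their bound, the floor of 3 UMIs over that group). Apoe, an apolipoprotein (chromosome 7, 19696109 to 19699188 of GRCm38), was at 9.82 and 13.4 CPM in XEN and 318 and 416 CPM in iXEN (log2 fold change 4.98, standard error 0.54, adjusted p = 7.78e-05). Both iXEN libraries were far above both XEN libraries and near the ES libraries, which had 517 and 536 CPM. Ihh, a hedgehog ligand that visceral endoderm makes, was at 10.7 and 7.74 CPM in XEN and 47.6 and 295 CPM in iXEN (log2 fold change 4.22, standard error 0.59, adjusted p = 0.000437). The iXEN duplicates differed several-fold in Ihh but did not overlap with XEN, and ES had only 0.137 and 0.182 CPM. Emb, a cell surface glycoprotein, was at 24.1 and 10.8 CPM in XEN and 130.4 and 134 CPM in iXEN (2.92, adjusted p = 0.00124). Cdh1, the epithelial E-cadherin, was at 4.10 and 6.12 CPM in XEN and 30.5 and 73.7 CPM in iXEN (3.35, adjusted p = 0.000201). The calls of Apoe, Ihh, Emb and Cdh1 were kept under all 16 alternatives, and in endoderm cells alone the values were 5.03, 4.26, 2.91 and 3.37. Spink1, a secreted trypsin inhibitor and the most abundant member that was not called, was at 749 and 523 CPM in XEN and 589 and 395 CPM in iXEN (-0.37, adjusted p = 0.84). The visceral endoderm count was 6, 9, 12 and 12 without XEN replicate 1, XEN replicate 2, iXEN replicate 1 and iXEN replicate 2, respectively, and 15 in endoderm cells alone. The visceral endoderm median lay between 2.03 (without iXEN replicate 2) and 2.98 (without pluripotent-like cells) over the alternatives, and was 2.29 in endoderm cells alone. The ES libraries had 29.5 and 30.4 CPM of Emb and 56.3 and 62.8 CPM of Cdh1.

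Other secreted products of visceral endoderm were called as well and are named here after their values were seen. The apolipoprotein Apoa2 was at 5.89 and 5.99 CPM in XEN and 23.4 and 31.5 CPM in iXEN (2.21, adjusted p = 0.0145), and it was not called without XEN replicate 1 (2.19, adjusted p = 0.101) or XEN replicate 2 (2.22, adjusted p = 0.0819) or iXEN replicate 2 (2.03, adjusted p = 0.0613). The ES libraries had more Apoa2 than iXEN, with 56.3 and 52.6 CPM, and after thinning to 2000 UMIs Apoa2 was detected in 10.4% and 10.1% of ES cells, 3.90% and 4.38% of iXEN cells and 1.01% and 1.04% of XEN cells. Apoc1, another apolipoprotein, had 0 and 9 UMIs in XEN replicates 1 and 2 and 259 and 384 UMIs in iXEN replicates 1 and 2. The groups did not overlap for either gene. Apob, the structural protein of large lipoproteins, had no UMI in XEN and 54 UMIs in iXEN, at least 30.2-fold higher, counted against a floor of 3 UMIs over both XEN libraries, and its call was lost without pluripotent-like cells. ES had 69.8 and 43.2 CPM of Apoc1 and at most 0.0183 CPM of Apob. Ttr, the carrier of thyroid hormone, was at 66.3 and 52.9 CPM in XEN and 150.4 and 393 CPM in iXEN and was not called (log2 fold change 2.19, standard error 0.95, adjusted p = 0.116), although its groups did not overlap either. Afp and Alb, carrier proteins of the later yolk sac and liver, were low in both groups, with 3.34 and 12.7 CPM in XEN and 3.80 and 2.77 CPM in iXEN for Afp and at most 0.0312 CPM of Alb in any of the 4 libraries. Among the 11 genes of the anterior visceral endoderm, 6 were called higher and none lower, beside 11.7% and 5.80% of all genes. None of these 6 was above 20.7 CPM in an iXEN library. The median log2 fold change of the list was 5.14, and 3.91 with the member at 0 in a group at its bound. It lay between 2.09 (without iXEN replicate 1) and 5.89 (without iXEN replicate 2) over the alternatives, and was 3.87 in endoderm cells alone. Sfrp1, a secreted Wnt inhibitor, was at 0.104 and 0.107 CPM in XEN and 7.34 and 12.7 CPM in iXEN (6.55, adjusted p = 0.000213). Dkk1, a Wnt inhibitor and the most abundant member, was at 26.9 and 37.5 CPM in XEN and 6.05 and 23.9 CPM in iXEN and was not called (-1.10, adjusted p = 0.311).

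Of the 30 genes of pluripotent cells, 12 were called higher and 1 lower, beside 11.7% and 5.80% of all genes, with a median log2 fold change of 1.89 (1.81 with the member at 0 in a group at its bound). The count of pluripotency genes called higher was 5, 5, 5 and 11 without XEN replicate 1, XEN replicate 2, iXEN replicate 1 and iXEN replicate 2, respectively, and 11 in endoderm cells alone and 5 without pluripotent-like cells. The pluripotency median lay between 0.91 (without pluripotent-like cells) and 2.56 (without iXEN replicate 2) over the alternatives, and was 1.29 in endoderm cells alone. Pluripotent-like cells were chosen by their UMIs over this same list, so lower values without them follow in part from that choice. Dppa5a, which encodes an RNA-binding protein of early embryos (chromosome 9, 78367052 to 78368177 of GRCm38), was at 0.530 and 0.670 CPM in XEN and 82.9 and 149 CPM in iXEN (log2 fold change 7.59, standard error 0.49, adjusted p = 1.78e-06), against 5250 and 4245 CPM in ES. Zfp42, also known as Rex1, was at 1.88 and 1.36 CPM in XEN and 17.6 and 26.0 CPM in iXEN (log2 fold change 3.75, standard error 0.58, adjusted p = 0.000836), against 785 and 589 CPM in ES. For both genes iXEN stood well above XEN and far below ES, and the calls were kept under all alternatives. Pou5f1, or Oct4, was at 0.644 and 0.759 CPM in XEN and 11.8 and 2.99 CPM in iXEN (3.39, adjusted p = 0.00722), Sox2 at 0.0663 and 0.107 CPM in XEN and 3.97 and 0.350 CPM in iXEN (4.61, adjusted p = 0.00668) and Nanog at 0 and 0.0804 CPM in XEN and 0.670 and 0.0609 CPM in iXEN (not called, 3.10, adjusted p = 0.0978). For these 3 factors iXEN replicate 1 held most of the RNA. Pou5f1 was not called without XEN replicate 1 (3.27, adjusted p = 0.0754) or XEN replicate 2 (3.51, adjusted p = 0.0532) or iXEN replicate 1 (2.09, adjusted p = 0.083), nor without pluripotent-like cells. Sox2 was not called without XEN replicate 1 (4.31, adjusted p = 0.0744) or iXEN replicate 1 (1.99, adjusted p = 0.19), nor without pluripotent-like cells or in endoderm cells alone (2.59, adjusted p = 0.0572). Klf2, a factor of naive pluripotency, was the 1 member that was lower, at 17.2 and 28.7 CPM in XEN and 2.32 and 4.16 CPM in iXEN (-2.82, adjusted p = 0.00601), and was not called without iXEN replicate 1 (-2.46, adjusted p = 0.0552). Klf4, which the XEN line also carries as a transgene, was at 173 and 152 CPM in XEN and 162 and 279 CPM in iXEN (0.44, adjusted p = 0.254) and was the most abundant member that was not called. Tfcp2l1, a factor of the LIF response, was at 10.4 and 10.8 CPM in XEN and 16.6 and 34.1 CPM in iXEN (1.25, adjusted p = 0.0202), and was not called without XEN replicate 1 (1.22, adjusted p = 0.122) or XEN replicate 2 (1.28, adjusted p = 0.0898) or iXEN replicate 2 (0.69, adjusted p = 0.24).

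The RNA of these factors was not spread alike over the iXEN cells. In iXEN replicate 1, Pou5f1 was at 82.1 plain CPM in the cells under the endoderm limit and at 4.81 in endoderm cells, and Sox2 was at 29.9 and 1.26. In iXEN replicate 2 the values for Pou5f1 were 16.6 and 3.14. Dppa5a showed the opposite order, with 26.1 plain CPM in the cells under the limit and 124 in endoderm cells of iXEN replicate 1, and 159 and 172 in iXEN replicate 2. Zfp42 was at 6.05 and 26.3 in iXEN replicate 1. After thinning to 2000 UMIs, Dppa5a was detected in 13.6% (95% exact binomial interval 12.6 to 14.5) and 23.03% (22.0 to 24.1) of iXEN cells, in 0.104% and 0.173% of XEN cells and in 95.2% and 95.4% of ES cells. Without thinning the iXEN shares were 29.4% and 49.6%. Pou5f1 was detected in 2.14% and 0.541% of thinned iXEN cells and in 0.179% and 0.155% of XEN cells. Transcripts of the Oct4, Sox2 and Klf4 cassette of the XEN line cannot be told from those of the endogenous genes, which bears on Pou5f1 here and not on Dppa5a. Free RNA was not estimated, and these shares are no measure of it. The median depth before thinning was 7394.5 and 7441 UMIs per iXEN cell and 15016.5 and 18976 per XEN cell. The intervals cover counting error only.

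The transcription factor genes T, Lef1, Hand1 and Otx2, named after their values were seen, had most of their UMIs in iXEN replicate 1. T, or Brachyury, a factor of the primitive streak, had no UMI in XEN replicate 1, 1 UMI in XEN replicate 2, 812 UMIs in iXEN replicate 1 and 1 UMI in iXEN replicate 2. Its UMIs came from 221 of 5912 cells in iXEN replicate 1 and from 1 of 6787 cells in iXEN replicate 2. T was called with all libraries, but not without XEN replicate 1 (adjusted p = 0.118) or XEN replicate 2 (adjusted p = 0.0839) or iXEN replicate 1 (adjusted p = 0.755), nor without pluripotent-like cells. Its level was 101 plain CPM in the cells under the endoderm limit of iXEN replicate 1 and 3.05 in the endoderm cells of that library. Lef1, a nuclear effector of Wnt signalling, was at 9.69 and 0.838 CPM in iXEN and had 3 UMIs in XEN, a ratio of 378 (95% counting interval 129 to 1838). Hand1, a factor of trophoblast and early mesoderm, was at 9.86 and 0.914 CPM in iXEN with no UMI in XEN, at least 387-fold higher. Otx2, a factor of epiblast and anterior visceral endoderm, was at 4.72 and 0.229 CPM in iXEN with 1 UMI in XEN, a ratio of 533 (95% counting interval 94.97 to 21115). In each of these 4 genes iXEN replicate 1 was more than 10-fold above iXEN replicate 2. The ratios above pool the libraries of a group, and the counting intervals cover counting error only and not this gap.

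Of 22 tested Wnt targets and regulators 11 were called higher and none lower, with a median log2 fold change of 2.35. The Wnt count was 4, 5, 3 and 12 without XEN replicate 1, XEN replicate 2, iXEN replicate 1 and iXEN replicate 2, respectively, and 9 in endoderm cells alone, 7 in a fit of the 4 libraries alone and 6 without pluripotent-like cells. The Wnt median lay between 1.42 (without iXEN replicate 1) and 2.73 (without iXEN replicate 2) over the alternatives, and was 1.57 in endoderm cells alone. Axin2, a feedback inhibitor of Wnt signalling, was even between the iXEN duplicates, at 1.90 and 0.572 CPM in XEN and 7.11 and 6.52 CPM in iXEN (2.46, adjusted p = 0.00172). Of 10 tested trophoblast genes 5 were called higher, all under 10 CPM, among them Cdx2, a trophoblast and hindgut factor, at 0.171 and 0.0268 CPM in XEN and 7.09 and 4.51 CPM in iXEN (5.87, adjusted p = 0.0074), which was not called without XEN replicate 2 (5.07, adjusted p = 0.0689). Of 15 endoderm transcription factors 4 were called higher, and these were Eomes, Prdm1, Gsc and Otx2, with at most 5.63 CPM in any iXEN library. Gsc was not called without XEN replicate 1 (4.95, adjusted p = 0.0756) or iXEN replicate 1 (2.52, adjusted p = 0.177). Of the 12 primitive endoderm surface and shared markers 1, Amn, a part of the endocytic cubilin receptor, was called, at 0.142 and 0.143 CPM in XEN and 4.10 and 3.41 CPM in iXEN (4.71, adjusted p = 0.00516), and it was not called without XEN replicate 1 (4.70, adjusted p = 0.0581), nor without pluripotent-like cells. Over all genes 11.7% were called higher. The count of these markers called higher was 0, 1, 1 and 3 without XEN replicate 1, XEN replicate 2, iXEN replicate 1 and iXEN replicate 2, respectively, and 1 in endoderm cells alone, 2 with RLE scaling, 5 with library totals, 3 with DESeq2, 3 when low counts were kept, 2 in a fit of the 4 libraries alone, 4 without fibroblast-like cells and 4 without fibroblast-like cells and cells with core pluripotency UMIs. Pth1r, the receptor for parathyroid hormone-related protein and the most abundant member, was at 635 and 375 CPM in XEN and 432 and 525 CPM in iXEN (-0.08, adjusted p = 0.953). Pth1r and Dab2, both of this marker list, are also among the genes that define endoderm cells.

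In the list for BMP, activin and Nodal, 10 of 26 genes were called higher and none lower, beside 11.7% and 5.80% of all genes, with a median log2 fold change of 2.01. Id3, an inhibitor of helix-loop-helix factors that BMP induces, was at 11.04 and 22.8 CPM in XEN and 178 and 89.5 CPM in iXEN (log2 fold change 2.98, standard error 0.42, adjusted p = 0.000471), and its relative Id1 was at 11.8 and 25.6 CPM in XEN and 114 and 79.1 CPM in iXEN (2.37, adjusted p = 0.00225). Both iXEN libraries exceeded both XEN libraries in these genes, as in 30.9% of all genes tested, and the calls were kept under all alternatives. Bambi, a decoy receptor, was at 21.8 and 14.2 CPM in XEN and 21.74 and 63.5 CPM in iXEN with overlapping libraries (1.24, adjusted p = 0.0277), and was not called without XEN replicate 1 (1.58, adjusted p = 0.0607) or XEN replicate 2 (0.96, adjusted p = 0.186) or iXEN replicate 2 (0.33, adjusted p = 0.481), nor in a fit of the 4 libraries alone or in endoderm cells alone (1.16, adjusted p = 0.0603). Fst, an activin antagonist and the most abundant member, was at 374 and 288 CPM in XEN and 248 and 649 CPM in iXEN and was not called (0.44, adjusted p = 0.557). The ligand Bmp4 was at 0.114 and 0.473 CPM in XEN and 12.8 and 1.6 CPM in iXEN (4.60, adjusted p = 0.00694), mostly in iXEN replicate 1, and was not called without XEN replicate 1 (3.92, adjusted p = 0.082) or iXEN replicate 1 (2.43, adjusted p = 0.101). The count for BMP, activin and Nodal was 4, 6, 6 and 10 without XEN replicate 1, XEN replicate 2, iXEN replicate 1 and iXEN replicate 2, respectively, and 7 in endoderm cells alone. The median for BMP, activin and Nodal lay between 1.20 (without iXEN replicate 1) and 2.47 (without iXEN replicate 2) over the alternatives, and was 1.29 in a fit of the 4 libraries alone and 1.41 in endoderm cells alone.

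In the FGF and MAPK list 5 of 21 genes were called higher and 1 lower, beside 11.7% and 5.80% of all genes, with a median log2 fold change of 0.86. The FGF and MAPK count of genes called higher was 2, 3, 2 and 6 without XEN replicate 1, XEN replicate 2, iXEN replicate 1 and iXEN replicate 2, respectively, and 4 in endoderm cells alone, 9 with library totals, 8 with DESeq2, 8 without fibroblast-like cells and 8 without fibroblast-like cells and cells with core pluripotency UMIs. The FGF and MAPK median lay between 0.65 (without iXEN replicate 1) and 1.32 (without pluripotent-like cells) over the alternatives, and was 0.66 in endoderm cells alone. Egr1, an immediate early transcription factor that growth factors induce, was at 0.919 and 3.19 CPM in XEN and 62.7 and 70.2 CPM in iXEN (log2 fold change 5.01, standard error 0.96, adjusted p = 0.00291). Spry2, a feedback inhibitor of FGF signalling, was at 21.1 and 24.1 CPM in XEN and 64.0 and 211 CPM in iXEN (2.60, adjusted p = 0.00272). Both rose in both iXEN libraries, with a larger spread for Spry2. The lower gene was Etv4, a factor downstream of FGF, at 12.04 and 17.2 CPM in XEN and 6.78 and 1.22 CPM in iXEN (-1.87, adjusted p = 0.0406). It was not called without XEN replicate 1 (-2.11, adjusted p = 0.0871) or XEN replicate 2 (-1.60, adjusted p = 0.16) or iXEN replicate 2 (-1.07, adjusted p = 0.216), nor with library totals, in a fit of the 4 libraries alone or without pluripotent-like cells. Phlda1, the most abundant member, was at 134 and 271 CPM in XEN and 148 and 322 CPM in iXEN and was not called. Among the 17 immediate early and stress genes, Egr1 and Hspb1 were called, beside 11.7% of all genes called higher, with between 2 and 4 called higher and between 0 and 1 called lower over the 16 alternatives. Hspb1, a small heat shock protein, was at 4.79 and 14.9 CPM in XEN and 86.6 and 49.1 CPM in iXEN (2.78, adjusted p = 0.00398), while its relative Cryab was at 1585 and 2183 CPM in XEN and 593 and 627 CPM in iXEN and missed the threshold (-1.63, adjusted p = 0.0588). Cryab was called under 5 of the 16 alternatives. Of the 12 genes of LIF and STAT3 signalling (over the alternatives between 1 and 3 called higher and between 0 and 1 called lower), Bcl3, a nuclear cofactor of NF-kappa-B, was the 1 called, beside 11.7% of all genes called higher, at 0.493 and 0.402 CPM in XEN and 3.40 and 5.79 CPM in iXEN (3.36, adjusted p = 2.8e-05).

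Of 18 chemokine and cytokine genes 9 were called higher and 1 lower, beside 11.7% and 5.80% of all genes, with a median log2 fold change of 2.18 (1.98 with the member at 0 in a group at its bound). The count of chemokine and cytokine genes called higher was 6, 5, 8 and 7 without XEN replicate 1, XEN replicate 2, iXEN replicate 1 and iXEN replicate 2, respectively, and 9 in endoderm cells alone and 5 without pluripotent-like cells. The chemokine and cytokine median lay between 2.05 (in a fit of the 4 libraries alone) and 2.58 (without XEN replicate 2) over the alternatives, and was 2.22 in endoderm cells alone. Ccl2, which attracts monocytes (chromosome 11, 82035571 to 82037453 of GRCm38), was at 0.256 and 0.250 CPM in XEN and 75.6 and 32.9 CPM in iXEN (log2 fold change 7.74, standard error 1.72, adjusted p = 0.00837). Cxcl16, a membrane-bound chemokine, was at 1.31 and 2.06 CPM in XEN and 59.7 and 71.5 CPM in iXEN (log2 fold change 5.28, standard error 0.67, adjusted p = 0.000213). The ES libraries had at most 0.931 CPM of Ccl2 and 8.65 and 4.60 CPM of Cxcl16. Kit, the receptor of stem cell factor, was at 85.4 and 60.2 CPM in XEN and 124 and 206 CPM in iXEN (1.18, adjusted p = 0.0128). Mif, an abundant cytokine, was at 1385 and 2102 CPM in XEN and 997 and 745 CPM in iXEN, on the edge of the limit for a call (-1.001, adjusted p = 0.0105), and was not called under 11 of 16 alternatives. Tnfrsf12a, a receptor of the TNF family, was the most abundant member that was not called, at 167 and 597 CPM in XEN and 371 and 861 CPM in iXEN. Ccl2 was not called without XEN replicate 1 (7.75, adjusted p = 0.0836) or XEN replicate 2 (7.71, adjusted p = 0.0698), nor without pluripotent-like cells. Kit was not called without XEN replicate 2 (0.94, adjusted p = 0.114) or iXEN replicate 2 (0.82, adjusted p = 0.11). Mif was not called without XEN replicate 2 (-0.67, adjusted p = 0.11) or iXEN replicate 2 (-0.76, adjusted p = 0.11).

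Of 17 tested interferon-stimulated genes 9 were called higher and none lower, beside 11.7% and 5.80% of all genes, with a median log2 fold change of 2.75. Ifitm3, a membrane protein that restricts viral entry, was at 1.03 and 1.09 CPM in XEN and 40.7 and 19.09 CPM in iXEN (log2 fold change 4.81, standard error 0.55, adjusted p = 0.00011), and Ifitm2 was at 8.35 and 16.4 CPM in XEN and 102 and 41.7 CPM in iXEN (2.54, adjusted p = 0.0015). Ifitm1 was uneven, at 0.350 and 0.634 CPM in XEN and 53.7 and 2.12 CPM in iXEN (5.82, adjusted p = 0.00293), and was 3.82 on the log2 scale in endoderm cells alone. Bst2, or tetherin, was at 6.30 and 11.8 CPM in XEN and 32.8 and 63.6 CPM in iXEN (2.41, adjusted p = 0.00775). The ES libraries had more Ifitm2 and Ifitm3 than either endoderm group, with 265 and 308 CPM of Ifitm3. Of 10 MHC class I genes 6 were called higher and none lower, beside 11.7% and 5.80% of all genes, with a median of 2.22. H2-K1, a classical class I heavy chain, was at 7.85 and 11.7 CPM in XEN and 30.8 and 44.7 CPM in iXEN (1.95, adjusted p = 0.0429), and Tapbp, which loads peptides onto class I, was at 8.66 and 10.9 CPM in XEN and 60.01 and 49.5 CPM in iXEN (2.48, adjusted p = 0.00728). B2m, the light chain and the most abundant member, was not called, with 212 and 456 CPM in XEN and 221 and 345 CPM in iXEN. Bst2 was not called without XEN replicate 1 (2.02, adjusted p = 0.0946) or iXEN replicate 2 (1.89, adjusted p = 0.0618). H2-K1 was not called without XEN replicate 1 (1.68, adjusted p = 0.239) or XEN replicate 2 (2.26, adjusted p = 0.11) or iXEN replicate 1 (2.19, adjusted p = 0.0701) or iXEN replicate 2 (1.69, adjusted p = 0.168), nor without pluripotent-like cells. Tapbp was not called without XEN replicate 1 (2.32, adjusted p = 0.0789). The interferon-stimulated count was 3, 6, 8 and 4 without XEN replicate 1, XEN replicate 2, iXEN replicate 1 and iXEN replicate 2, respectively, and 7 in endoderm cells alone. The interferon-stimulated median lay between 2.14 (without XEN replicate 1) and 3.64 (without XEN replicate 2) over the alternatives, and was 2.85 in endoderm cells alone. The MHC class I count was 2, 4, 4 and 5 without XEN replicate 1, XEN replicate 2, iXEN replicate 1 and iXEN replicate 2, respectively, and 6 in endoderm cells alone and 3 without pluripotent-like cells. The MHC class I median lay between 2.00 (without XEN replicate 1) and 2.75 (without XEN replicate 2) over the alternatives, and was 2.33 in endoderm cells alone.

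In the list of epithelial and mesenchymal adhesion genes 9 of 24 were called higher in iXEN and none lower, beside 11.7% and 5.80% of all genes, with a median log2 fold change of 1.35. Besides Cdh1, Ocln, a protein of tight junctions, was at 3.16 and 3.30 CPM in XEN and 15.2 and 27.0 CPM in iXEN (2.71, adjusted p = 0.00252). Fn1, the matrix protein fibronectin, was at 5.07 and 6.88 CPM in XEN and 109 and 31.8 CPM in iXEN (log2 fold change 3.55, standard error 1.01, adjusted p = 0.0231). In iXEN replicate 1, Fn1 was at 528 plain CPM in the cells under the endoderm limit and at 82.0 in endoderm cells. It was not called without XEN replicate 1 (3.35, adjusted p = 0.156) or XEN replicate 2 (3.79, adjusted p = 0.103) or iXEN replicate 1 (2.41, adjusted p = 0.146). Cdh2, the mesenchymal N-cadherin, was at 22.9 and 0.670 CPM in iXEN replicates 1 and 2 and at 0.0379 and 0.268 CPM in XEN, and was not called without XEN replicate 1 (5.44, adjusted p = 0.179) or XEN replicate 2 (8.22, adjusted p = 0.082) or iXEN replicate 1 (2.11, adjusted p = 0.422), nor without pluripotent-like cells. Itgb1, an integrin subunit and the most abundant member, was at 339 and 306 CPM in XEN and 215 and 170.4 CPM in iXEN and was not called. The adhesion count was 2, 3, 3 and 8 without XEN replicate 1, XEN replicate 2, iXEN replicate 1 and iXEN replicate 2, respectively, and 7 in endoderm cells alone. The adhesion median lay between 0.92 (in a fit of the 4 libraries alone) and 1.84 (without pluripotent-like cells) over the alternatives, and was 1.20 in endoderm cells alone.

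**Figure D3:**
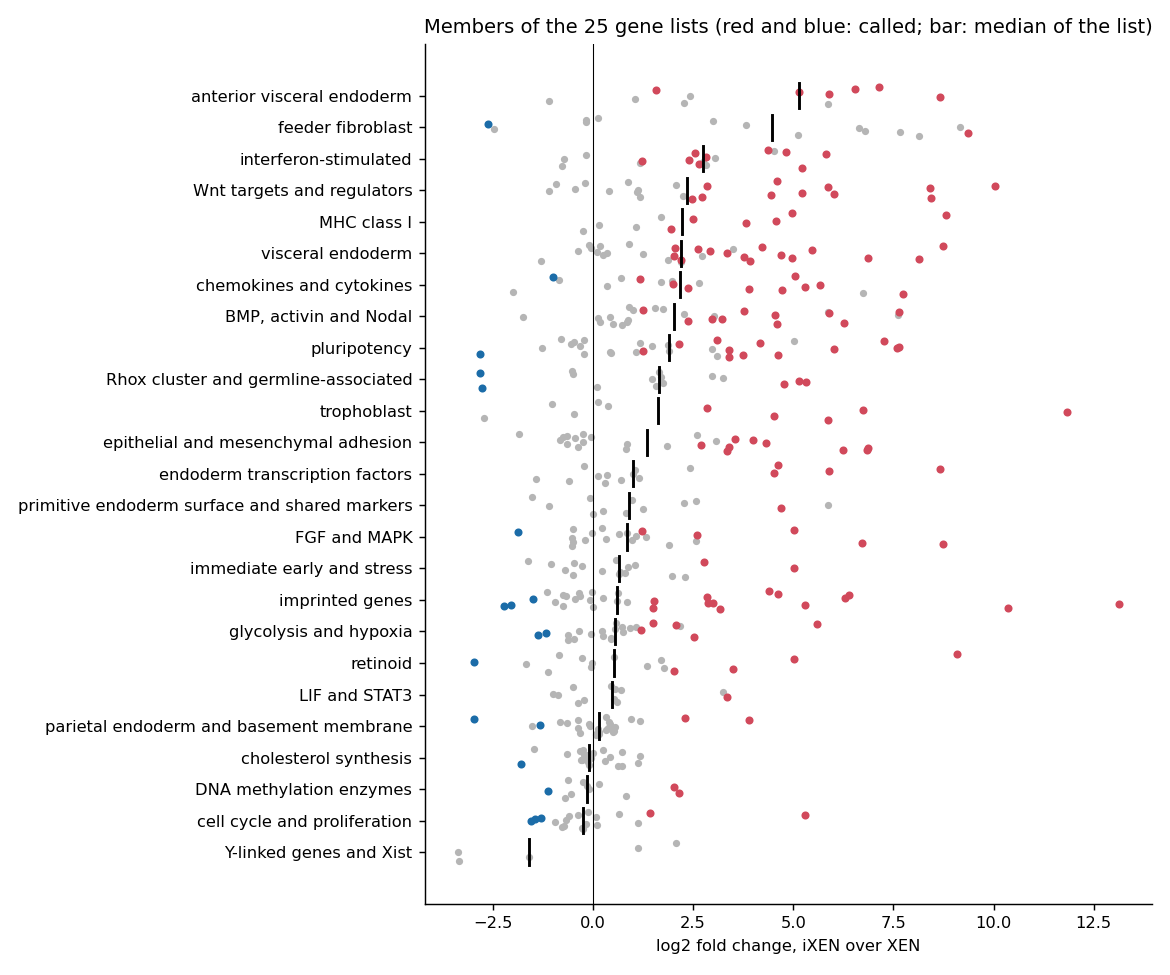
Log2 fold change of iXEN over XEN for every tested member of the 25 gene lists, ordered by the median of the list (black bar), with called members in red (higher) or blue (lower) and others in grey. Visceral endoderm has 15 red points and no blue ones, while the parietal endoderm and basement membrane list lies around 0 with a median of 0.14.

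Of 15 retinoid genes 4 were called higher and 1 lower, beside 11.7% and 5.80% of all genes, with a median log2 fold change of 0.52. Rbp4, the carrier of retinol in blood, was higher in iXEN, at 79.3 and 139.9 CPM in XEN and 403 and 489.7 CPM in iXEN (log2 fold change 2.03, standard error 0.65, adjusted p = 0.0381), whereas Stra6, the membrane receptor for retinol bound to Rbp4, was lower by the values given above. Cyp26a1, which breaks down retinoic acid, was at 94.1 and 78.8 CPM in XEN and 46.0 and 122 CPM in iXEN and was not called (-0.04, adjusted p = 0.991). Rbp4 was not called without XEN replicate 1 (1.67, adjusted p = 0.238) or XEN replicate 2 (2.49, adjusted p = 0.0839) or iXEN replicate 1 (2.16, adjusted p = 0.0771) or iXEN replicate 2 (1.92, adjusted p = 0.115), although its groups did not overlap. The count of retinoid genes called higher was 0, 0, 0 and 3 without XEN replicate 1, XEN replicate 2, iXEN replicate 1 and iXEN replicate 2, respectively, and 2 in endoderm cells alone, 2 in a fit of the 4 libraries alone and 2 without pluripotent-like cells. The retinoid median lay between 0.03 (in a fit of the 4 libraries alone) and 0.89 (with library totals) over the alternatives, and was 0.17 in endoderm cells alone and 0.33 without XEN replicate 1. The other called members, Crabp1, Aldh1a2 and Hoxb1, were at most 3.94 CPM in iXEN.

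Imprinted genes are expressed from the allele of 1 parent. Of 31 tested, 13 were called higher and 3 lower in iXEN, beside 11.7% and 5.80% of all genes, with a median log2 fold change of 0.60. The count of imprinted genes called higher was 8, 11, 10 and 12 without XEN replicate 1, XEN replicate 2, iXEN replicate 1 and iXEN replicate 2, respectively, and 13 in endoderm cells alone. The imprinted count called lower was 1, 0, 3 and 0 without XEN replicate 1, XEN replicate 2, iXEN replicate 1 and iXEN replicate 2, respectively, and 3 in endoderm cells alone and 1 without pluripotent-like cells. The imprinted median lay between 0.04 (in endoderm cells alone) and 1.02 (with library totals) over the alternatives, and was 0.33 without XEN replicate 1, 0.08 without iXEN replicate 1 and 0.93 without iXEN replicate 2. Igf2, an embryonic growth factor (chromosome 7, 142650766 to 142666816 of GRCm38), had 4 UMIs in XEN, all in replicate 2, and was at 30.1 and 22.0 CPM in iXEN (log2 fold change 10.36, standard error 1.98, adjusted p = 0.0029). Dlk1, a membrane protein of the Dlk1-Meg3 domain, lacked UMIs in XEN and reached 5.17 and 21.6 CPM in iXEN, at least 978-fold higher. Meg3, the noncoding RNA of that domain, was at 13.1 and 18.7 CPM in XEN and 82.5 and 149 CPM in iXEN (log2 fold change 2.87, standard error 0.54, adjusted p = 0.00282). H19, the noncoding partner of Igf2, was at 0.815 and 0.402 CPM in XEN and 2.91 and 7.95 CPM in iXEN (3.16, adjusted p = 0.0184), and was not called without XEN replicate 1 (3.75, adjusted p = 0.0771) or XEN replicate 2 (2.73, adjusted p = 0.131) or iXEN replicate 2 (2.32, adjusted p = 0.123), nor without pluripotent-like cells. The receptor Igf2r, which degrades the growth factor, was at 18.4 and 20.2 CPM in XEN and 57.0 and 52.6 CPM in iXEN (1.505, adjusted p = 0.00602). Cdkn1c, an inhibitor of the cell cycle, was at 0.369 and 0.250 CPM in XEN and 14.3 and 10.1 CPM in iXEN (5.30, adjusted p = 0.00046). For all 6 genes the iXEN libraries lay above the XEN libraries, as for 30.9% of all genes tested.

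Lower in iXEN were Peg10, a gene of retroviral origin needed in placenta, at 96.0 and 87.1 CPM in XEN and 25.4 and 13.8 CPM in iXEN (-2.23, adjusted p = 0.0242), its neighbour Sgce at 38.3 and 36.2 CPM in XEN and 12.2 and 14.3 CPM in iXEN (-1.49, adjusted p = 0.0219), and Phlda2, which restrains placental growth, at 123 and 218 CPM in XEN and 55.8 and 27.4 CPM in iXEN (-2.03, adjusted p = 0.00586). Phlda2 was -3.19 in endoderm cells alone. Cd81, a tetraspanin and the most abundant imprinted gene that was not called, was at 182 and 293 CPM in XEN and 439.9 and 297 CPM in iXEN. Peg10 was not called without XEN replicate 1 (-2.16, adjusted p = 0.0951) or XEN replicate 2 (-2.30, adjusted p = 0.065) or iXEN replicate 1 (-2.73, adjusted p = 0.053) or iXEN replicate 2 (-1.80, adjusted p = 0.165), nor without pluripotent-like cells. Sgce was not called without XEN replicate 1 (-1.45, adjusted p = 0.0951) or XEN replicate 2 (-1.53, adjusted p = 0.0666) or iXEN replicate 1 (-1.38, adjusted p = 0.114) or iXEN replicate 2 (-1.56, adjusted p = 0.0886), nor with library totals or without pluripotent-like cells. Phlda2 was not called without XEN replicate 2 (-1.57, adjusted p = 0.0541) or iXEN replicate 2 (-1.57, adjusted p = 0.0648). Igf2r was not called without XEN replicate 1 (1.43, adjusted p = 0.0628). Among 11 DNA methylation enzymes (beside 11.7% and 5.80% of all genes, and over the alternatives between 1 and 3 called higher and between 0 and 2 called lower), Tet2, which oxidises methylcytosine, and Dnmt3l, a cofactor of new methylation, were called higher, with 1.55 and 1.54 CPM in XEN and 7.03 and 5.45 CPM in iXEN for Tet2 (2.01, adjusted p = 0.00011), and Uhrf1, which keeps methylation through replication, was called lower at 63.6 and 51.6 CPM in XEN and 32.7 and 20.5 CPM in iXEN (-1.12, adjusted p = 0.0195). Uhrf1 was not called without XEN replicate 1 (-0.96, adjusted p = 0.125) or iXEN replicate 2 (-0.76, adjusted p = 0.17), nor with library totals, and the call of Dnmt3l was lost whichever of the 4 libraries was omitted, and also with a replicate block, without pluripotent-like cells or without cells with core pluripotency UMIs. Of 15 tested Rhox and germline-associated genes 3 were called higher and 2 lower, all with group means under 15 CPM, beside 11.7% and 5.80% of all genes. The Rhox and germline-associated count of genes called higher was 1, 2, 4 and 2 without XEN replicate 1, XEN replicate 2, iXEN replicate 1 and iXEN replicate 2, respectively, and 4 in endoderm cells alone, 6 with library totals, 6 with DESeq2, 5 in a fit of the 4 libraries alone, 6 without fibroblast-like cells, 1 without pluripotent-like cells and 6 without fibroblast-like cells and cells with core pluripotency UMIs. The Rhox and germline-associated count called lower was 0, 1, 0 and 1 without XEN replicate 1, XEN replicate 2, iXEN replicate 1 and iXEN replicate 2, respectively, and 2 in endoderm cells alone and 1 without pluripotent-like cells. Rhox5, an X-linked homeobox gene expressed in extraembryonic endoderm, was at 104 and 254 CPM in XEN and 181 and 201 CPM in iXEN (0.09, adjusted p = 0.964).

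In the glycolysis and hypoxia list 5 of 23 genes were called higher and 2 lower, beside 11.7% and 5.80% of all genes, with a median log2 fold change of 0.56. The glycolysis and hypoxia count of genes called higher was 1, 0, 6 and 1 without XEN replicate 1, XEN replicate 2, iXEN replicate 1 and iXEN replicate 2, respectively, and 5 in endoderm cells alone and 2 without pluripotent-like cells. The glycolysis and hypoxia median lay between 0.35 (without iXEN replicate 2) and 0.90 (with library totals) over the alternatives, and was 0.60 in endoderm cells alone. The enzymes Tpi1 and Pgam1 were lower, with 467 and 494 CPM in XEN and 193 and 176 CPM in iXEN for Tpi1 (-1.38, adjusted p = 0.0187) and 394 and 428 CPM in XEN and 189 and 174 CPM in iXEN for Pgam1 (-1.18, adjusted p = 0.00668). Slc2a1, the glucose transporter, was higher, at 53.7 and 59.2 CPM in XEN and 108 and 153 CPM in iXEN (1.20, adjusted p = 0.0158). Ndrg1, a gene that hypoxia induces, was at 8.35 and 10.6 CPM in XEN and 8.20 and 71.4 CPM in iXEN (2.07, adjusted p = 0.0446), with iXEN replicate 1 near XEN. Without iXEN replicate 2 its value reversed to -0.17, adjusted p = 0.885, and it was not called without XEN replicate 1 (1.90, adjusted p = 0.224) or XEN replicate 2 (2.25, adjusted p = 0.137), nor in a fit of the 4 libraries alone, with a replicate block or without pluripotent-like cells. Gapdh, the most abundant member, was at 1415 and 1932 CPM in XEN and 1338 and 830.3 CPM in iXEN and was not called (-0.63, adjusted p = 0.141). Tpi1 was not called without XEN replicate 1 (-1.42, adjusted p = 0.0731) or XEN replicate 2 (-1.34, adjusted p = 0.0724) or iXEN replicate 1 (-1.45, adjusted p = 0.0727) or iXEN replicate 2 (-1.27, adjusted p = 0.116), nor with library totals. Pgam1 was not called without iXEN replicate 2 (-1.07, adjusted p = 0.0528), nor with library totals. Slc2a1 was not called without XEN replicate 1 (1.13, adjusted p = 0.114) or XEN replicate 2 (1.27, adjusted p = 0.068) or iXEN replicate 2 (0.98, adjusted p = 0.106).

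Of 20 cell cycle genes 2 were called higher, the cell cycle inhibitor Cdkn1c and the retinoblastoma gene Rb1, and 3 lower, beside 11.7% and 5.80% of all genes. The cell cycle count of genes called higher was 1, 1, 1 and 1 without XEN replicate 1, XEN replicate 2, iXEN replicate 1 and iXEN replicate 2, respectively, and 2 in endoderm cells alone. The cell cycle count called lower was 2, 4, 2 and 3 without XEN replicate 1, XEN replicate 2, iXEN replicate 1 and iXEN replicate 2, respectively, and 3 in endoderm cells alone. Rb1, named after its values were seen, was at 3.25 and 4.34 CPM in XEN and 9.44 and 10.97 CPM in iXEN (1.43, adjusted p = 0.025). The median log2 fold change of the list was -0.26. The cell cycle median lay between -0.51 (without XEN replicate 2) and 0.10 (with library totals) over the alternatives, and was -0.26 in endoderm cells alone, -0.12 without XEN replicate 1 and -0.43 without iXEN replicate 1. Ccnd3, a cyclin of G1, was at 260.0 and 251 CPM in XEN and 106 and 68.7 CPM in iXEN (log2 fold change -1.55, standard error 0.28, adjusted p = 0.00199), and Mcm2 and Mcm5, subunits of the replicative helicase, were at 80.0 and 56.2 CPM in XEN and 24.9 and 25.4 CPM in iXEN and at 94.0 and 69.1 CPM in XEN and 26.3 and 40.5 CPM in iXEN, respectively (-1.44, adjusted p = 0.00373 for Mcm2 and -1.29, adjusted p = 0.0103 for Mcm5). Ccnd2, another cyclin of G1, was at 413 and 736 CPM in XEN and 294 and 305 CPM in iXEN and was not called (-0.94, adjusted p = 0.399). Mcm5 was not called without XEN replicate 1 (-1.05, adjusted p = 0.0946) or iXEN replicate 1 (-1.01, adjusted p = 0.0912), nor with library totals. Insig1, a sensor of sterols in the control of cholesterol synthesis, was at 71.4 and 74.7 CPM in XEN and 125 and 208 CPM in iXEN and just missed the threshold (1.18, adjusted p = 0.0511), and it was called under 10 of the 16 alternatives.

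The 15 highest and 15 lowest log2 fold changes were taken from 455 called genes with at least 50 CPM in the higher group and no overlap between groups (86 higher, 369 lower). The highest were RP24-286J21.7, Ccl2, Dppa5a, Cxcl16, Egr1, Apoe, Cyba, Ihh, Rpl29, Fn1, Cdh1, Sox4, Slc30a1, Id3 and Emb. RP24-286J21.7, a symbol without a place in GENCODE vM21, was at 0.104 and 0.0536 CPM in XEN and 117 and 176 CPM in iXEN (log2 fold change 10.85, standard error 0.39, adjusted p = 8.63e-10). It was nearly absent from XEN. Cyba, a subunit of the NADPH oxidase, was at 2.47 and 3.55 CPM in XEN and 53.5 and 65.6 CPM in iXEN (4.30, adjusted p = 7.78e-05). Sox4, a transcription factor of progenitors, was at 6.40 and 10.6 CPM in XEN and 91.4 and 66.7 CPM in iXEN (3.22, adjusted p = 0.00726), and was not called without XEN replicate 1 (2.89, adjusted p = 0.0856). Slc30a1, a zinc exporter, was at 7.08 and 6.39 CPM in XEN and 20.3 and 94.5 CPM in iXEN (3.09, adjusted p = 0.00124), with a wide gap between the iXEN duplicates. All 30 genes were also called in endoderm cells alone, and the calls of 24 were kept under all alternatives.

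The lowest were Crip1, Birc7, Lgals1, Ptger3, Gnai1, Stra6, Psmb10, Capn6, Rangrf, Rpp25, Drp2, Sssca1, Mrpl34, Ramp2 and Impdh1. Crip1, a small LIM domain protein (chromosome 12, 113146316 to 113153879 of GRCm38), was at 477 and 561 CPM in XEN and 21.71 and 45.5 CPM in iXEN (log2 fold change -3.95, standard error 0.38, adjusted p = 3.07e-05). Lgals1, or galectin-1, was at 705 and 2278 CPM in XEN and 224 and 50.8 CPM in iXEN (-3.44, adjusted p = 0.0136), and its duplicates differed several-fold in both groups, and it was not called without XEN replicate 2 (-2.37, adjusted p = 0.106) or iXEN replicate 2 (-2.70, adjusted p = 0.105), nor without pluripotent-like cells. Birc7, an inhibitor of apoptosis, was at 57.1 and 102 CPM in XEN and 9.72 and 4.74 CPM in iXEN (-3.46, adjusted p = 0.00011). Ptger3, a prostaglandin E2 receptor, was at 55.2 and 50.7 CPM in XEN and 4.86 and 5.73 CPM in iXEN (-3.32, adjusted p = 0.00448), and Gnai1, an inhibitory G protein subunit, was at 124 and 98.8 CPM in XEN and 13.6 and 12.4 CPM in iXEN (-3.10, adjusted p = 0.000213). Ramp2, which modifies the calcitonin receptor-like receptor, was at 146 and 71.9 CPM in XEN and 17.4 and 23.9 CPM in iXEN (-2.40, adjusted p = 0.000478). Psmb10, a subunit of the immunoproteasome, was at 92.1 and 72.9 CPM in XEN and 17.1 and 5.41 CPM in iXEN (-2.87, adjusted p = 0.00101), while 6 of 10 MHC class I genes were called higher, beside 11.7% of all genes. Mrpl34, a protein of the mitochondrial ribosome, was at 509 and 585 CPM in XEN and 132 and 75.8 CPM in iXEN (-2.40, adjusted p = 0.000596), and Impdh1, an enzyme of guanine nucleotide synthesis, at 102 and 93.7 CPM in XEN and 24.0 and 16.9 CPM in iXEN (-2.26, adjusted p = 0.000444). The X-linked genes Capn6, a calpain-like protein, and Drp2, a relative of dystrophin, were at 112 and 96.7 CPM in XEN and 20.7 and 10.4 CPM in iXEN and 54.2 and 54.8 CPM in XEN and 9.10 and 10.9 CPM in iXEN, respectively.

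**Figure D4:**
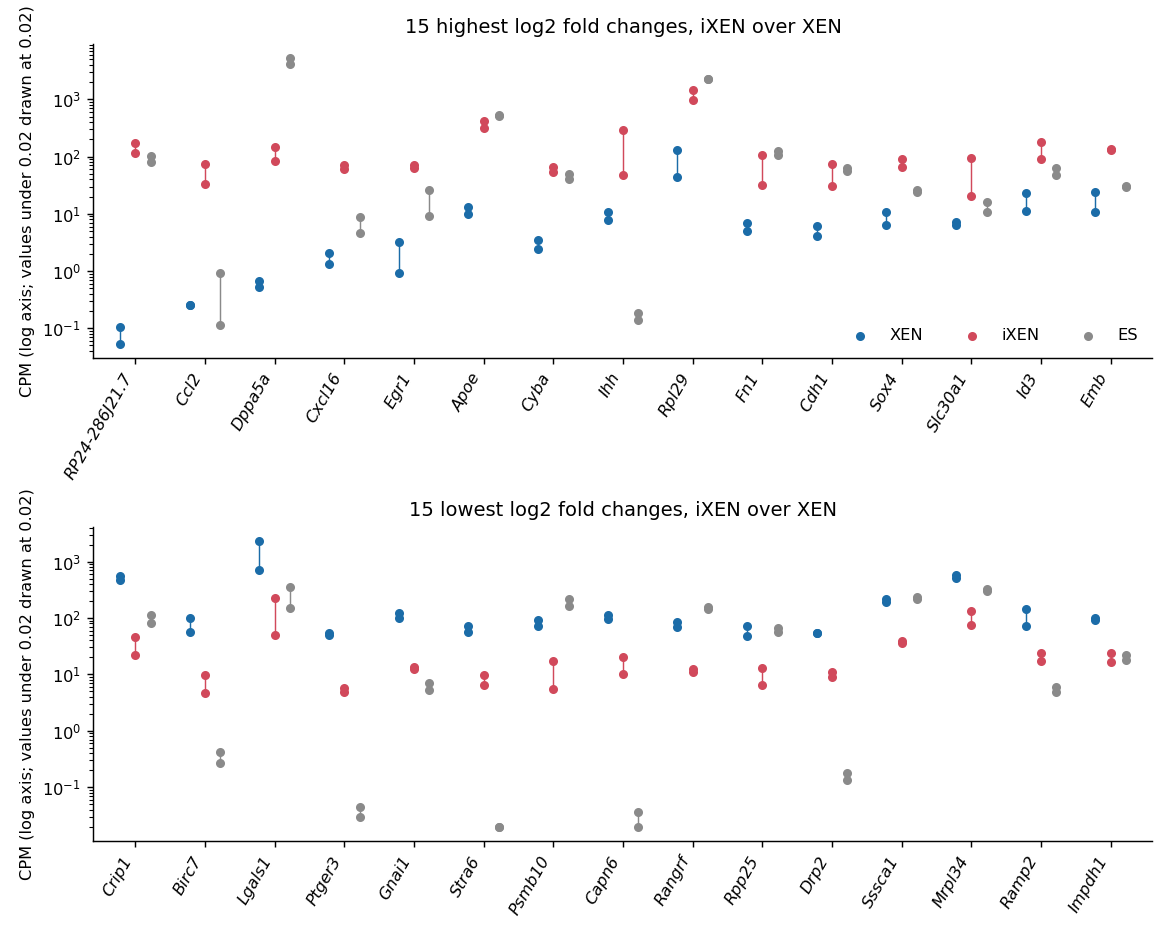
Level in CPM (log axis, values under 0.02 drawn at 0.02) of the 15 genes with the highest and the 15 with the lowest log2 fold change, in 2 XEN (blue), 2 iXEN (red) and 2 ES (grey) libraries. By the rule that chose them, XEN and iXEN points do not overlap for any gene; Lgals1, Ihh and Slc30a1 show wide gaps between duplicates.

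The share of cells with a UMI, after thinning to 2000 UMIs per cell, comes from the same counts that chose these genes and is given as a description. Crip1 was detected in 43.5% and 44.4% of XEN cells and in 4.81% and 8.81% of iXEN cells. Ihh was detected in 10.9% and 36.3% of iXEN cells and in 1.71% and 1.17% of XEN cells. Apoe was detected in 35.5% and 46.9% of iXEN cells and in 1.80% and 1.79% of XEN cells. Ccl2 was found in few iXEN cells, 5.67% and 2.20%, and in 0.0447% and 0.0690% of XEN cells. The thinning left out between 234 and 691 cells under 2000 UMIs per library.

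The XEN-iPS cells of the series descend from the XEN line and the ES cells are the parents of iXEN, so ES against XEN-iPS sets the same pair of lines side by side in the pluripotent state, with no library in common with iXEN against XEN. In ES against XEN-iPS 3200 genes were called (18.8%), 799 higher (4.68%) and 2401 lower (14.1%) in ES. An interaction term for the difference between both comparisons was called for 28.0% of genes, and the value of iXEN against XEN exceeded that of ES against XEN-iPS in 18.4% and lay under it in 9.58%. Genes called in both comparisons numbered 655, of which 271 had the same direction, 9.06% of the genes called in iXEN against XEN and 8.47% of those called in ES against XEN-iPS, and 384 had opposite directions. Over all genes 11.7% were called higher and 5.80% lower in iXEN against XEN. Unrelated calls at such shares would also coincide for some genes. How many was not computed, so the 271 genes are given as a count only. XEN-iPS replicate 2 held 40.8% fibroblast-like cells and replicate 1 6.57%. Without such cells 289 genes had the same direction, 8.58% and 11.5% of the calls. When only the libraries of ES and XEN-iPS were in the model, 2 genes were called, against 3200 when all 20 libraries shared 1 estimate of the spread.

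Among the genes with the same direction and at least 50 CPM in both comparisons, RP24-286J21.7, Rpl29, Id1, ERDR1, Gm10036, Snhg6, Taf10 and Timp1 had the largest change in the weaker of both. RP24-286J21.7 was at 81.0 and 103 CPM in ES and 3.94 and 3.30 CPM in XEN-iPS. Rpl29, a protein of the large ribosomal subunit, was at 43.6 and 132 CPM in XEN and 959 and 1447 CPM in iXEN (log2 fold change 3.78, standard error 0.88, adjusted p = 0.00851), and at 2251 and 2306 CPM in ES and 39.2 and 231 CPM in XEN-iPS. The ES line was thus high in both states, and the XEN line low. Ribosomal protein genes have near-identical copies in the genome, and how SEQC's resolving of multi-mapping reads placed reads among such copies was not checked here, so the level of Rpl29 and of the processed pseudogene Gm10036 (324 and 149 CPM in XEN and 716 and 760.2 CPM in iXEN) is uncertain. Id1 was at 225 and 198 CPM in ES and 68.6 and 31.2 CPM in XEN-iPS. ERDR1 was at 64.7 and 58.1 CPM in XEN and 139 and 193 CPM in iXEN (1.44, adjusted p = 0.0171) and the noncoding RNA Snhg6 at 95.5 and 74.5 CPM in XEN and 157 and 309 CPM in iXEN (1.46, adjusted p = 0.015). Taf10, a subunit of TFIID, was at 72.6 and 130.01 CPM in XEN and 42.2 and 47.6 CPM in iXEN (-1.17, adjusted p = 0.0362) and Timp1, an inhibitor of matrix proteases, at 72.4 and 102 CPM in XEN and 36.6 and 38.3 CPM in iXEN (-1.22, adjusted p = 0.0446). In iXEN against XEN, Rpl29 was not called without XEN replicate 1 (3.18, adjusted p = 0.0952). ERDR1 was not called without XEN replicate 1 (1.51, adjusted p = 0.0895) or XEN replicate 2 (1.36, adjusted p = 0.101) or iXEN replicate 2 (1.23, adjusted p = 0.092). Gm10036 was not called without XEN replicate 2 (1.18, adjusted p = 0.136) or iXEN replicate 2 (1.66, adjusted p = 0.0524). Snhg6 was not called without XEN replicate 1 (1.64, adjusted p = 0.0656) or XEN replicate 2 (1.28, adjusted p = 0.109) or iXEN replicate 2 (0.94, adjusted p = 0.151). Taf10 was not called without XEN replicate 2 (-0.70, adjusted p = 0.284) or iXEN replicate 1 (-1.09, adjusted p = 0.153) or iXEN replicate 2 (-1.22, adjusted p = 0.131), nor with library totals or without pluripotent-like cells. Timp1 was not called without XEN replicate 1 (-1.44, adjusted p = 0.0826) or XEN replicate 2 (-0.96, adjusted p = 0.21) or iXEN replicate 1 (-1.18, adjusted p = 0.162) or iXEN replicate 2 (-1.21, adjusted p = 0.171), nor with RLE scaling, with library totals, with a replicate block, without pluripotent-like cells or in endoderm cells alone (-1.16, adjusted p = 0.056).

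The share of genes called lower in iXEN varied from chromosome to chromosome. Over the 9092 placed or unplaced genes with at least 5 CPM in the higher group, the median log2 fold change was -0.18 and 8.78% were called lower. On chromosome 19 the median was -0.77 and 102 of 326 genes (31.3%) were called lower, with 10 called higher. The medians of chromosomes 16, 6 and 8 were -0.56, -0.51 and -0.45, with 56 of 287 (19.5%), 80 of 407 (19.7%) and 80 of 513 genes (15.6%) called lower. The other autosomes had medians between -0.30 (chromosome 15) and 0.13 (chromosome 1), and the X chromosome -0.31. With each of the 4 libraries left out in turn the median of chromosome 19 was between -0.82 and -0.72, and it was -0.75 in endoderm cells alone and -0.70 with RLE. In ES against XEN-iPS the median was -0.43 on chromosome 19, -0.25 on chromosome 6, -0.15 on chromosome 16 and 0.10 on chromosome 8, beside 0.10 over all. Genes of a chromosome are not independent replicates, and no test was made.

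The XEN cells themselves fell into parts that differed in RNA of the Y chromosome. Ddx3y was at 24.1 and 17.6 CPM in XEN and 2.42 and 1.68 CPM in iXEN and was not called (-3.35, adjusted p = 0.0558). It was called under 2 of the 16 alternatives, when low counts were kept and in a fit of the 4 libraries alone. Ddx3y, Eif2s3y, Uty and Kdm5d together had 2 or more UMIs in 1045 (15.1%) and 830 (13.5%) of the XEN cells and none in 5140 (74.0%) and 4577 (74.4%). The median depth was 14865 and 21144 UMIs in the former and 15303 and 18511 in the latter. Genes on chromosomes 1, 5 and 9 were higher in the XEN cells with Y-linked RNA, with median log2 ratios of 0.35, 0.35 and 0.34 in replicate 1 and 0.32, 0.34 and 0.35 in replicate 2, beside 0.09 and 0.10 over all genes with at least 10 plain CPM. On chromosome 19 the ratios were -0.22 and -0.22. The 2 libraries thus gave nearly the same values for each of these chromosomes. Against iXEN, chromosome 19 had the lowest median for either part of XEN, in plain CPM. Against cells without Y-linked RNA it was -0.48 and -0.36, beside 0.13 and 0.29 over all genes. Against cells with Y-linked RNA it was -0.27 and -0.14, beside 0.04 and 0.18 over all genes.

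Some genes differed several-fold between these parts of XEN, in plain CPM. Whether the XEN libraries hold 1 line with and without a Y chromosome or more than 1 line cannot be told apart here. Crip1 was at 589 CPM in cells without and 89.6 CPM in cells with Y-linked RNA in XEN replicate 1, and 673 and 84.3 CPM in XEN replicate 2, beside 28.9 and 52.4 in iXEN. The XEN cells with Y-linked RNA thus lay between the other XEN cells and iXEN. Meg3 was at 5.23 CPM in cells without and 28.4 CPM in cells with Y-linked RNA in XEN replicate 1, and 7.96 and 47.3 CPM in XEN replicate 2, beside 110.0 and 171 in iXEN. ERDR1, given above among the genes with the same direction in both comparisons of lines, also differed between the parts of XEN. It was at 31.4 CPM in cells without and 163 CPM in cells with Y-linked RNA in XEN replicate 1. In XEN replicate 2 it was at 29.1 and 128 CPM, beside 185 and 222 in iXEN. Gkn2, a gastrokine, was at 182 CPM in cells without and 22.2 CPM in cells with Y-linked RNA in XEN replicate 1, and 291 and 25.4 CPM in XEN replicate 2, beside 92.5 and 173 in iXEN. Rhox5, which was not called between iXEN and XEN, was at 44.9 CPM in cells without and 270.3 CPM in cells with Y-linked RNA in XEN replicate 1, and 146 and 504 CPM in XEN replicate 2, beside 241 and 231 in iXEN. Pdpn, or podoplanin, a membrane protein of parietal endoderm, was at 10.4 CPM in cells without and 80.9 CPM in cells with Y-linked RNA in XEN replicate 1, and 8.66 and 48.9 CPM in XEN replicate 2, beside 136 and 199 in iXEN. In iXEN 96.2% and 96.4% of cells had no Y-linked UMI, and in ES 99.8% and 99.9%. The 60 and 75 iXEN cells with 2 or more Y-linked UMIs had 177 and 176 plain CPM of RP24-286J21.7, which was nearly absent from XEN cells, and Ddx3y at 129 and 74.8. These splits of cells are descriptions, since the cells were chosen by their RNA, and fewer UMIs of a Y-linked gene and its absence cannot be told apart in a single cell. Gkn2 and Pdpn were named after their values were seen.

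**Figure D5:**
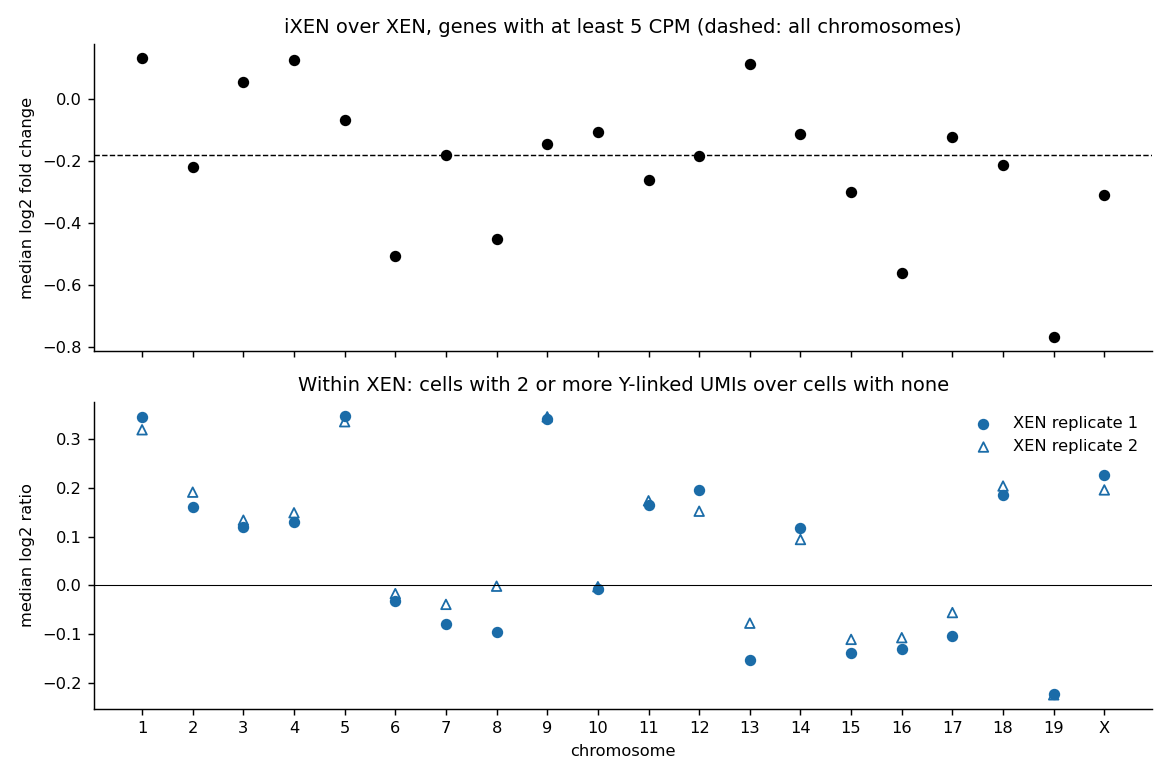
Median log2 fold change of iXEN over XEN for the genes of each chromosome (upper panel, dashed line at -0.18 for all genes) and median log2 ratio of XEN cells with 2 or more Y-linked UMIs over XEN cells with none (lower panel, circles for replicate 1 and triangles for replicate 2). Chromosomes 6, 8, 16 and 19 lie lowest in the upper panel, and chromosomes 1, 5 and 9 highest in the lower one in both libraries.

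Apart from Acta2, every feeder fibroblast gene of the list was at most at the 5.90 CPM of Mfap5 in each of the 4 libraries. Of 14 feeder fibroblast genes, all tested, 1 was called higher, beside 11.7% of all genes (Col3a1, at least 69.8-fold higher against a floor of 3 UMIs over both XEN libraries, with 1.51 and 0.427 CPM in iXEN) and 1 lower (Mfap5, at 3.58 and 5.90 CPM in XEN and 0.514 and 1.02 CPM in iXEN), and the summed level of the list was 21.0 and 61.7 CPM in XEN and 76.7 and 15.3 CPM in iXEN. Of the 14 genes, 9 had both iXEN libraries above both XEN libraries, beside 30.9% of all genes, and 5 had no UMI in a group. The median log2 fold change was 4.46, and 3.48 with those 5 at their bound. Over the alternatives the list had between 0 and 5 called higher and between 0 and 1 called lower, with the highest count in DESeq2 and without fibroblast-like cells. The fibroblast median lay between 1.65 (in a fit of the 4 libraries alone) and 6.56 (without XEN replicate 2) over the alternatives, and was 3.78 in endoderm cells alone and 2.43 without iXEN replicate 1. Acta2, smooth muscle actin and the most abundant member, was at 15.04 and 53.3 CPM in XEN and 63.6 and 11.4 CPM in iXEN (0.13, adjusted p = 0.963). The summed level was highest in iXEN replicate 1, the library that also had the most cells under the endoderm limit. With the fibroblast-like cells left out of every library, 3368 genes were called, 2514 higher and 854 lower. Mfap5 was not called without XEN replicate 1 (-2.94, adjusted p = 0.0539) or XEN replicate 2 (-2.22, adjusted p = 0.107) or iXEN replicate 1 (-2.22, adjusted p = 0.146) or iXEN replicate 2 (-3.16, adjusted p = 0.0607), and Col3a1 was not called without XEN replicate 1 (adjusted p = 0.154) or XEN replicate 2 (adjusted p = 0.135) or iXEN replicate 1 (adjusted p = 0.116), nor without pluripotent-like cells or in endoderm cells alone.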

How the data were processed

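Single-cell libraries had been prepared by the authors with a droplet 3' method and processed with SEQC against GRCm38/mm10 (the annotation version is not given in the sources used here), and cells above 20% mitochondrial RNA had been removed. The deposited tables hold unnormalized UMI counts per gene and cell, and SEQC is stated to resolve multi-mapping reads, without saying how for near-identical genes. Cells with 500 or more genes were kept (113288 of 134279), columns with the same symbol were summed, and counts were summed per library. The 20 libraries of 10 conditions were fitted with edgeR 4.0.16 (filterByExpr, TMM, quasi-likelihood test, 10 residual degrees of freedom, Benjamini-Hochberg adjustment) in R 4.3.3, without covariates, and DESeq2 1.42.0 was an alternative. Standard errors are the log2 fold change divided by the square root of F. The study itself tested single cells, which are not replicates of a condition. No doublet caller was run. Gene places are from GENCODE vM21 (22012 of 22936 symbols). The members and the 25 gene lists (427 genes) were chosen with earlier results of these data known. Genes named were fixed markers, the 15 highest and 15 lowest called genes of at least 50 CPM, list members of at least 20 CPM (up to 4 per direction, and the most abundant one not called) and 8 genes shared with ES against XEN-iPS. Others were named after their values were seen. The fit was checked on simulated data, with 50 genes changed at each size. At an adjusted p under 0.05 it recovered 4% of genes changed 1.5-fold, 10% of those changed 2-fold, 92% at 4-fold and 96% at 8-fold. In that simulation, changes near the limit for a call were thus mostly missed. All genes but the changed ones were equal between the groups there, whereas 3761 of 17063 genes had an adjusted p under 0.05 in the data. The adjustment for many tests thus differs, and these shares do not carry over to the data. A gene that was not called can still hold a change. No sequence was read from the genome. A result on the cholesterol synthesis list is not reported here.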

Additional observations from a re-analysis of the deposited data

Results flagged for a closer look

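The difference between the 2 lines was measured in the endoderm state, as iXEN against XEN, and in the pluripotent state, as ES against XEN-iPS, and an interaction term of the edgeR model tested whether the differences were unequal. Over all genes 28.0% were called in that test (18.4% higher and 9.58% lower). Among the marker genes and the genes named by size, 29 were called, all at a Benjamini-Hochberg adjusted p under 0.05. Values are on the log2 scale. The interaction values of the marker genes were positive, with Gata4 at 3.17 (0.30 in iXEN against XEN and -2.87 in ES against XEN-iPS), Gata6 at 4.21 (-0.61 in iXEN against XEN and -4.82 in ES against XEN-iPS) and Sox17 at 5.34 (0.69 in iXEN against XEN and -4.64 in ES against XEN-iPS). The others were Pdgfra at 5.85 (-0.01 in iXEN against XEN and -5.86 in ES against XEN-iPS), Sox2 at 4.22 (4.61 in iXEN against XEN and 0.39 in ES against XEN-iPS) and Zfp42 at 3.99 (3.75 in iXEN against XEN and -0.24 in ES against XEN-iPS). Cells that passed the endoderm limit made up 3.08% and 1.42% of XEN-iPS cells (131 and 97 cells) and 4 and 0 cells of ES, and their part in the values of Gata4, Gata6, Sox17 and Pdgfra was not tested. Of these XEN-iPS cells, 7 of 131 in replicate 1 and 83 of 97 in replicate 2 were also fibroblast-like. The other genes had been chosen for the size of their value in iXEN against XEN, which is 1 term of the interaction, so that the sign of the interaction largely follows from that choice. Chosen as high in iXEN were RP24-286J21.7 at 6.17 (10.85 in iXEN against XEN and 4.67 in ES against XEN-iPS), Ccl2 at 16.92 (7.74 in iXEN against XEN and -9.19 in ES against XEN-iPS), Dppa5a at 7.88 (7.59 in iXEN against XEN and -0.29 in ES against XEN-iPS), Cxcl16 at 6.34 (5.28 in iXEN against XEN and -1.06 in ES against XEN-iPS) and Egr1 at 6.66 (5.01 in iXEN against XEN and -1.64 in ES against XEN-iPS). Others were Apoe at 3.80 (4.98 in iXEN against XEN and 1.18 in ES against XEN-iPS), Cyba at 5.23 (4.30 in iXEN against XEN and -0.93 in ES against XEN-iPS), Ihh at 4.27 (4.22 in iXEN against XEN and -0.05 in ES against XEN-iPS), Fn1 at 5.46 (3.55 in iXEN against XEN and -1.90 in ES against XEN-iPS) and Cdh1 at 2.59 (3.35 in iXEN against XEN and 0.76 in ES against XEN-iPS). Others were Sox4 at 4.59 (3.22 in iXEN against XEN and -1.37 in ES against XEN-iPS), Slc30a1 at 2.81 (3.09 in iXEN against XEN and 0.28 in ES against XEN-iPS), Id3 at 3.97 (2.98 in iXEN against XEN and -0.99 in ES against XEN-iPS) and Emb at 2.39 (2.92 in iXEN against XEN and 0.53 in ES against XEN-iPS). Chosen as low in iXEN were Crip1 at -2.86 (-3.95 in iXEN against XEN and -1.09 in ES against XEN-iPS), Gnai1 at -2.77 (-3.10 in iXEN against XEN and -0.33 in ES against XEN-iPS), Psmb10 at -4.70 (-2.87 in iXEN against XEN and 1.83 in ES against XEN-iPS), Rangrf at -3.24 (-2.69 in iXEN against XEN and 0.55 in ES against XEN-iPS) and Rpp25 at -2.54 (-2.63 in iXEN against XEN and -0.09 in ES against XEN-iPS). Others were Sssca1 at -3.30 (-2.43 in iXEN against XEN and 0.87 in ES against XEN-iPS), Mrpl34 at -2.87 (-2.40 in iXEN against XEN and 0.47 in ES against XEN-iPS), Ramp2 at -2.86 (-2.40 in iXEN against XEN and 0.46 in ES against XEN-iPS) and Impdh1 at -1.81 (-2.26 in iXEN against XEN and -0.45 in ES against XEN-iPS). XEN-iPS replicate 1 held 6.57% and replicate 2 40.8% fibroblast-like cells. With such cells left out of every library the interaction was called for 4207 genes, of which 3704 were among the 4781, and ES against XEN-iPS for 2507 genes in place of 3200. With only the libraries of the 4 conditions in the model, 2111 genes were called in place of 4781.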

How the results depend on the processing

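The 2990 genes called in iXEN against XEN became 1666 without pluripotent-like cells, a limit that took between 62.2% and 84.7% of the cells of these libraries, and between 1185 and 2221 with 1 library left out. Under the other alternatives the count was between 2469 (only the 4 libraries in the model) and 3368 (without fibroblast-like cells). The share called higher was 66.9%, and 89.6% with library totals, and the median log2 fold change of all genes moved by more than 0.1 only with that scaling. In ES against XEN-iPS the 3200 calls became 2 with only the libraries of these conditions, where 3750 genes had an unadjusted p under 0.05 and DESeq2 on all libraries called 3407, and between 777 and 4801 with 1 library left out. The 4781 calls of the interaction became 2111 with only the 4 conditions and between 2566 and 6456 with 1 library left out. The cause of these moves was not tested. With a replicate block the counts were 2886, 3062 and 4615. The numbers 1 and 2 mark no shared batch in the labels, and the deviations of same-numbered libraries correlated at -0.153 between XEN and iXEN and between -0.304 and 0.474 over 45 pairs of conditions. With the iXEN numbers crossed, an alternative chosen after seeing the data, 2883 genes were called. Of the 72 called genes named by rule, 37 stayed called under all alternatives, and 26, 24, 14 and 23 were lost without XEN replicate 1, XEN replicate 2, iXEN replicate 1 and iXEN replicate 2. Ndrg1 reversed to -0.17 without iXEN replicate 2 and was at most 2.91 with another library left out. Endoderm cells alone, scaling to library totals, and the cells with Pou5f1, Nanog, Sox2 or Zfp42 UMIs left out were also chosen after seeing the data.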
